A study of Arabidopsis thaliana with 11 samples.

Results

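Van-0 is a wild-type accession of Arabidopsis thaliana, that is, a natural inbred line, and its embryo transcriptome was set here against those of 6 other wild-type accessions. In 89 of 22746 probe sets the Van-0 signal differed from the mean of the other accessions by at least 3-fold, passed the test, and lay outside the range of all 10 other arrays. In 43 of them Van-0 was above every other array, led among named genes by the thionin gene THI2.2, the TIR-NBS-LRR gene CSA1, AT2G10940 and the starch regulator QQS. In the other 46 Van-0 was below every other array, led by AT2G14460 and AT2G40010 and including SAE1A, ATKDSA2 and ETFBETA, which encode enzymes of SUMO activation, cell wall sugar synthesis and mitochondrial electron transfer. These members are 0.391% of the probe sets tested, and 60 of them carry a single gene name. Another accession lay within 2-fold of Van-0 in QQS (Col-0), AT2G40010 and SAE1A (Nw-0), and ETFBETA (Ts-1). With the spread between accessions as error, only AT2G14460 and ATKDSA2 of the genes named above still passed.

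The series holds 11 Affymetrix ATH1 arrays of whole embryos taken from maturing seeds at the torpedo stage, when the cotyledons of the embryo grow out. Col-0 and Fe-1 have 3 arrays each, called biological replicates in the labels, and Van-0, Ts-1, Nw-0, Bay-0 and Ler-0 have 1 array each. All plants were untreated wild type, and the labels class Van-0, Col-0 and Ts-1 as independent of ZLL (AGO10), the ARGONAUTE gene that protects shoot stem cells, and Bay-0, Fe-1, Ler-0 and Nw-0 as dependent on it. Each array measured a pool of dissected embryos, in which fewer cells of a type and less RNA per cell cannot be told apart.

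Natural accessions differ in their genomes through base changes, deletions and whole genes that are present in some lines and missing in others. Genes of defence, such as those for thionins, small antimicrobial peptides, and for nucleotide-binding leucine-rich repeat receptors, are known for such variation. An ATH1 probe set reads a transcript with short oligonucleotides designed on the Col-0 genome. RNA that differs in sequence from these probes can give a low signal at an unchanged level, so for any gene low in Van-0 a lower transcript level and a poorer match to the probes cannot be told apart with these files. The same limit applies to genes higher in Van-0 where other accessions than Col-0 have a low signal.

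Values are log2 signals from RMA, in which a step of 1 is a factor of 2. The array medians ran from 7.57 to 7.71, with Van-0 at 7.68, and the lower quartile of the Van-0 array was at 5.04. Across all probe sets, which are not independent replicates, the Van-0 array correlated with the other arrays at 0.981 (Col-0 replicate 3) to 0.986 (Ts-1). None of the 9 embryo markers fixed for a check of the tissue had a named probe set, so the labelled tissue was not tested with them.

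The difference for a probe set is the Van-0 value minus the mean of the 6 other accession means, with Col-0 and Fe-1 averaged over their 3 arrays first. It was tested with limma, with p-values adjusted by Benjamini-Hochberg over all 22746 probe sets, and a probe set passed when its adjusted p was under 0.05 and its difference reached 3-fold. Van-0 has 1 array, so its own spread was not measured, and the test assumes that it varies as the Col-0 and Fe-1 replicates do. The p-values therefore set the Van-0 difference against the spread between replicate arrays, not against the spread between accessions.

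Under this test 59 probe sets were higher in Van-0 (0.259% of those tested) and 72 were lower (0.317%). Van-0 lay above every other array in 43 of the higher probe sets (0.189% of all tested) and below every other array in 46 of the lower ones (0.202%). A rank beyond the 10 others is not rare in itself: at any size of difference Van-0 was above every other array in 11.9% of probe sets and below every other array in 7.34%. Over all probe sets the median difference was 0.02 on the log2 scale, against 1.93 in the 43 higher members, a value the selection fixes. The lower members had a median of -2.01.

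The same contrast was formed for each other accession against its 6 counterparts. Van-0 had 89 such probe sets, Bay-0 88, Fe-1 93, Ts-1 85, Nw-0 72, Col-0 70 and Ler-0 261. Van-0 thus stood near the middle of these counts and well below Ler-0, and the differences between the counts were not tested. The counts are not fully alike. All 3 arrays of Col-0 or of Fe-1 had to lie outside the range, against 1 array for each other accession.

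**Figure D1:**
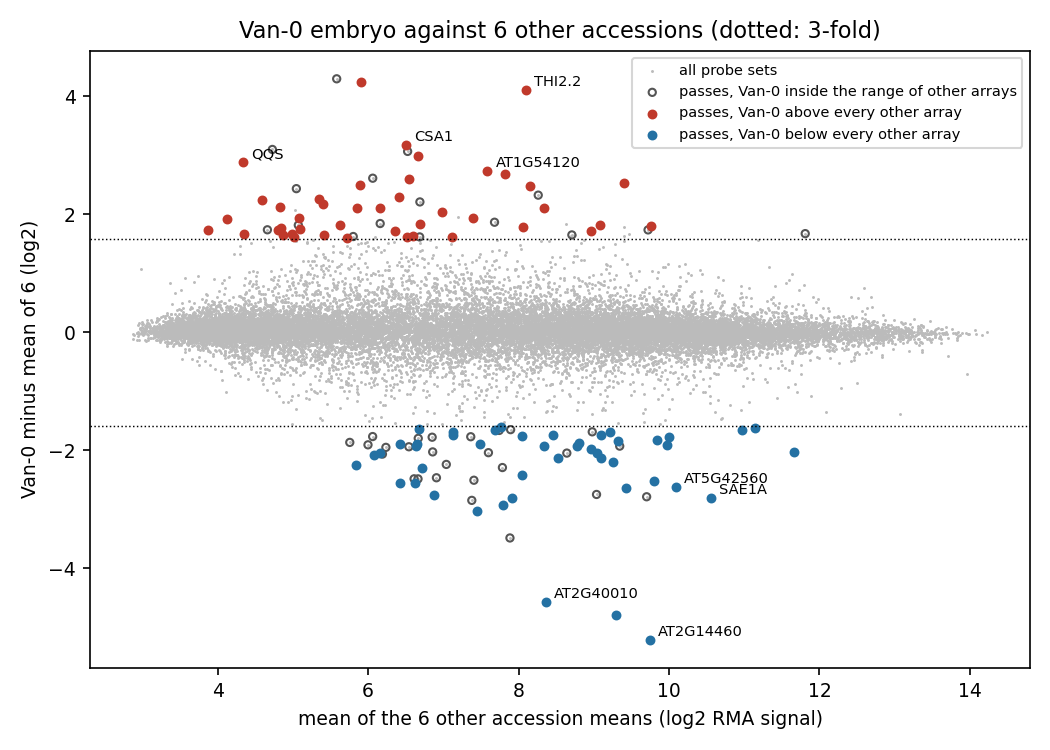
Each point is a probe set, plotted by the mean of the 6 other accession means (log2 RMA signal, x axis) and the Van-0 difference from it (log2, y axis), with dotted lines at 3-fold. Filled red and blue points are the 43 and 46 probe sets that passed with Van-0 above or below all 10 other arrays, and open circles are the passing probe sets in which another array reached the Van-0 level.

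Measured against the spread between the 6 other accession means in place of that between replicates, 4 higher and 7 lower probe sets passed the adjusted threshold, and all 11 had Van-0 outside the range. The named ones were AT1G54120, AT5G45950 and scpl41 among those higher and AT2G14460, AT5G42560, ATKDSA2 and AT5G22620 among those lower. The SD of the 6 accession means was 0.057 to 0.451 in these 7 genes and 1.94 in THI2.2. THI2.2, CSA1, QQS, SAE1A and AT2G40010 did not pass this stricter comparison. At an unadjusted p under 0.05 and 3-fold it held 71 probe sets, 64 of them among the 89 members.

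The probe set that stood farthest above all other arrays has no gene in the annotation used here. It was at 10.15 in Van-0, while the 10 others ran from 5.57 (Nw-0) through a median of 5.95 to 6.16 (Ts-1). The log2 difference was 4.24, and Van-0 was 15.9-fold above the nearest array (adjusted p = 3.59e-06 with limma and 0.00148 with the spread between accessions).

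THI2.2 encodes a thionin, a small cysteine-rich peptide of plant defence. Its signal was 12.20 in Van-0, 10.11 in Bay-0, 9.43 in Nw-0, 7.42 in Ts-1 and 6.55 in Ler-0. The Col-0 replicates were at 9.61, 9.25 and 10.35 and the Fe-1 replicates at 5.37, 5.05 and 5.66. Van-0 was the highest array of a gene that differed widely among the other accessions, Fe-1 being the lowest. The Van-0 difference was 4.097 on the log2 scale (standard error 0.36, adjusted p = 0.000984 with limma), and Van-0 was 3.60-fold above the nearest array, Col-0 replicate 3.

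CSA1, named for a constitutive shade-avoidance phenotype, encodes a receptor of the TIR-NBS-LRR class. It was at 9.68 in Van-0, 8.49 in Bay-0, 7.41 in Ts-1, 5.41 in Ler-0 and 5.02 in Nw-0. Col-0 was at 7.36, 7.62 and 8.21 and Fe-1 at 4.96, 4.91 and 5.04. The order of accessions thus had Van-0 and Bay-0 at the top and Fe-1 and Nw-0 at the bottom, near the lower quartile of their arrays. The Van-0 difference was 3.17 (standard error 0.26, adjusted p = 0.000657 with limma).

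QQS, an orphan gene known as a regulator of leaf starch content, was at 7.21 in Van-0. The Col-0 replicates were at 5.98, 6.47 and 6.97, and every array of the other 5 accessions lay between 3.69 and 4.12. QQS therefore had a clear signal in Van-0 and Col-0 alone among these arrays, and Van-0 exceeded the highest Col-0 replicate by 0.25, less than the Col-0 replicates differed among themselves. The Van-0 difference from the 6 accession means was 2.88 (standard error 0.28, adjusted p = 0.00159 with limma).

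AT5G48570, which encodes the FK506-binding protein FKBP65 (ROF2), of a family of peptidyl-prolyl isomerases that take part in protein folding, was at 10.50 in Van-0. The 10 other arrays ran from 7.19 (Nw-0) through a median of 8.24 to 8.88 (Fe-1 replicate 2). Van-0 was 3.09-fold above the nearest array and differed by 2.68 (standard error 0.09, adjusted p = 2.11e-05 with limma). The Fe-1 replicates spanned only 8.78 to 8.88 and the Col-0 replicates 8.20 to 8.33.

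Other genes stood just as clearly apart in Van-0. AT1G54120 was at 10.31, against 7.26 to 7.99 in the other arrays (median 7.61), so that Van-0 was 5.004-fold above the nearest (difference 2.72, adjusted p = 0.000117). AT2G10940 was at 9.64, against 5.83 to 7.65 (median 6.65), a difference of 2.98 (adjusted p = 0.000191 with limma). Neither gene is annotated with a function in the tables used here. AT5G45950 was at 6.54 in Van-0 while the 10 other arrays spanned 4.60 to 4.90, below the lower quartile of each array. It differed by 1.74 (adjusted p = 0.000273), and it passed with the spread between accessions as well (adjusted p = 0.00268).

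**Figure D2:**
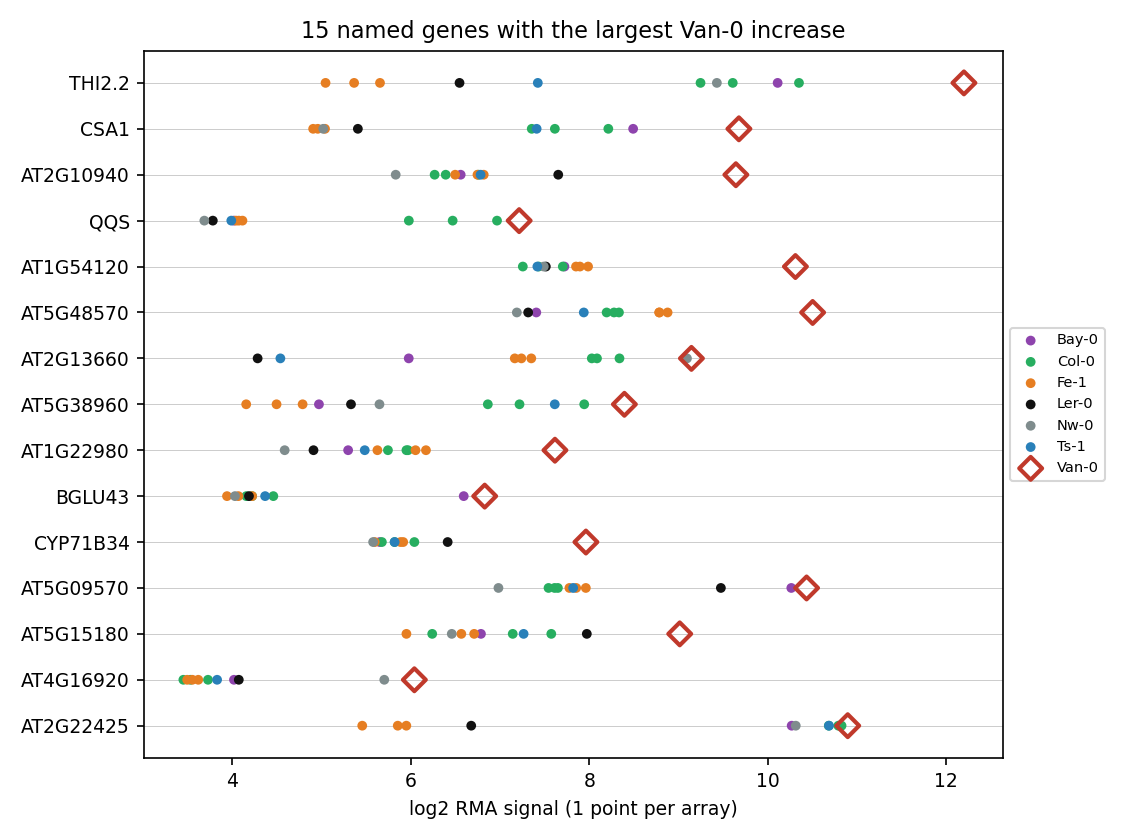
Log2 RMA signal (x axis, 1 point per array) of the 15 named genes with the largest Van-0 increase, ordered from the top by the difference, with Van-0 as open red diamonds and the other accessions as coloured circles. The Van-0 diamond is the rightmost point in every row, at 12.20 for THI2.2 and 7.21 for QQS, and in AT2G13660, AT5G09570 and AT2G22425 another accession lies close beside it.

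An oxidising enzyme, a glucosidase and a germin-like protein were encoded by further genes of the 15 largest increases. CYP71B34, a cytochrome P450 gene, was at 7.96 in Van-0 and at 5.58 to 6.41 elsewhere, a difference of 2.11 (adjusted p = 0.000495 with limma). AT5G38960, a putative germin-like protein, was at 8.39 in Van-0, but Ts-1 reached 7.61 and Col-0 6.86, 7.22 and 7.94, with Fe-1 lowest at 4.16 to 4.79. BGLU43, a beta-glucosidase gene, was at 6.83 in Van-0 and 6.59 in Bay-0, with the 9 arrays of the other accessions no higher than 4.46. For BGLU43 the high level was thus common to Van-0 and Bay-0.

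The remaining genes of the 15 largest increases were AT2G13660, AT1G22980, AT5G09570, AT5G15180, AT4G16920 and AT2G22425, with differences from 2.60 to 1.82. Of these, AT1G22980 (7.62 against 4.59 to 6.17) and AT5G15180 (9.01 against 5.95 to 7.97) had no other accession within 2-fold of Van-0. AT2G13660 had the smallest gap to the nearest array, with Nw-0 at 9.10 beside Van-0 at 9.14. AT2G22425 had the most accessions within 2-fold of Van-0, as Bay-0, Col-0, Nw-0 and Ts-1 all lay between 10.27 and 10.83 beside Van-0 at 10.90, and it was Fe-1 and Ler-0 that were low, at 5.46 to 6.68. AT5G15180 had the largest adjusted p of the 15 (0.0386 with limma), and its Col-0 replicates ranged from 6.24 to 7.58. It did not pass in 7 of 20 alternatives.

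Several higher members with an annotated role fall outside the 15 and were picked for that annotation after their values were seen. SCPL34 and scpl41, both serine carboxypeptidase-like genes, differed by 1.60 and 1.73. SCPL34 was at 7.32 in Van-0 against 5.07 to 6.09 in the other arrays, and scpl41 at 5.61 against 3.67 to 4.39. WDL3 (AT3G23090), of a family of microtubule-binding proteins, was at 10.69 against 8.07 to 9.71. NdhL, a subunit of the NADH dehydrogenase-like complex of chloroplasts, was at 8.23 against 5.50 to 7.20. GH3.9, a putative auxin-conjugating enzyme, was at 7.05, with Ler-0 next at 6.54 and the others at 4.92 to 5.84.

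In the other direction AT2G14460, for which the tables used give no function, had the largest difference among all members. It was at 4.53 in Van-0, below the lower quartile of that array. The 10 other arrays ran from 8.55 (Col-0 replicate 3) through a median of 9.78 to 10.26 (Bay-0). Every other array thus had a signal above its own median, and the nearest array was 16.2-fold above Van-0. The difference was -5.21 (standard error 0.28, adjusted p = 0.000101 with limma and 0.0118 with the spread between accessions).

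AT5G42560 and ATKDSA2 were likewise low in Van-0 alone. AT5G42560 was at 7.46 in Van-0, and the 10 other arrays lay within 10.02 to 10.20, so that the nearest was 5.90-fold above Van-0. The difference was -2.63 (standard error 0.09, adjusted p = 2.11e-05). ATKDSA2 encodes a synthase of KDO-8-phosphate, the precursor of a sugar in the pectin of plant cell walls. It was at 7.29 in Van-0 and at 9.48 (Fe-1 replicate 2) to 10.001 (Ler-0) elsewhere, a difference of -2.51 (standard error 0.11, adjusted p = 4.88e-05 with limma). In both genes Van-0 retained a signal near the middle of its array.

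AT2G40010 and SAE1A were low in Van-0 and Nw-0 together. AT2G40010 was at 3.79 in Van-0 and 4.57 in Nw-0, while the other 9 arrays ran from 8.65 (Ler-0) to 9.61 (Fe-1 replicate 2). SAE1A, a subunit of the enzyme that activates SUMO, the small modifier attached to other proteins, was at 7.75 in Van-0 and 7.92 in Nw-0, and at 10.97 to 11.23 in the others. In each gene the arrays thus formed a low pair and a high cluster with no value between. The Van-0 differences were -4.57 and -2.81 (adjusted p = 3.59e-06 and 2.21e-05 with limma), and both are reduced by counting the low Nw-0 array among the reference accessions.

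A low level was held in common with other accessions in further genes. ETFBETA, the beta subunit of the electron transfer flavoprotein of mitochondria, was at 6.79 in Van-0 and 7.06 in Ts-1, intermediate in Fe-1 at 8.72 to 9.12, and at 10.09 to 10.45 in the remaining arrays. AT3G43960 was at 4.86 in Van-0 and 5.33 in Ts-1. AT1G68080 was at 5.116 in Van-0 and 5.598 in Bay-0, and AT5G51630 at 3.87 in Van-0 and 3.96 in Bay-0. The partner accession therefore changed from gene to gene. AT5G05750 was at 4.13 in Van-0 and 4.51 in Ler-0, and AT1G31950 at 6.99 in Van-0 and 7.64 in Bay-0.

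AT4G09500, AT5G05480, AT5G22620, AT4G38410 and AT5G23460 were low in Van-0 without such a partner, with the nearest array from 2.74-fold to 3.49-fold above Van-0. AT4G09500 was at 4.01 in Van-0 against 5.81 to 6.61, and AT5G22620 at 8.02 against 9.66 to 10.05. AT4G26170 was also lowest in Van-0, at 4.41, but varied among the others, from 5.79 in Col-0 to 8.07 in Fe-1. For AT5G44520, at 5.64 in Van-0, the arrays of Fe-1 and Ts-1 at 6.40 to 6.71 stood between Van-0 and the other arrays, which began at 8.44.

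**Figure D3:**
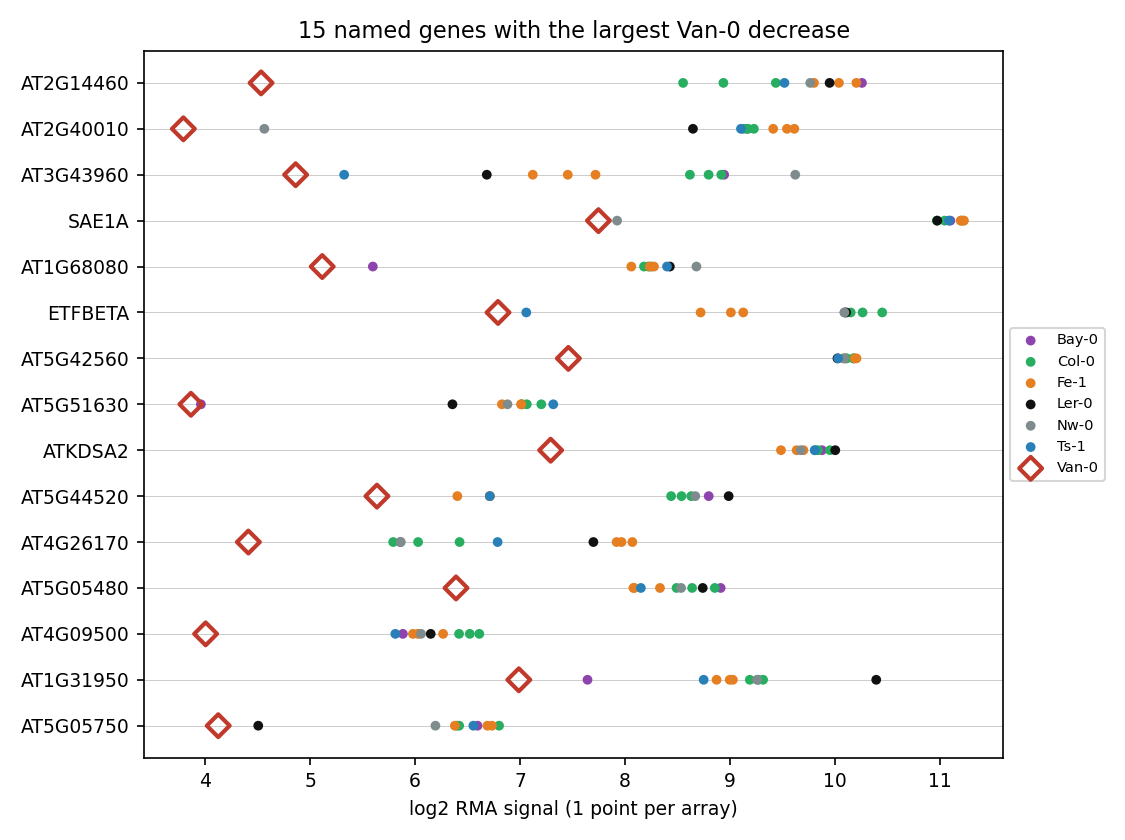
Log2 RMA signal (x axis, 1 point per array) of the 15 named genes with the largest Van-0 decrease, ordered from the top by the size of the difference, with Van-0 as open red diamonds and the other accessions as coloured circles. The Van-0 diamond is the leftmost point in every row, alone at 4.53 for AT2G14460 and beside Nw-0 for AT2G40010 and SAE1A.

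AT5G41650, described as a glyoxalase I family protein, was at 5.38 in Van-0, next to Ler-0 at 5.78 and Fe-1 at 5.97 to 6.60, with Col-0 at 7.77 to 8.35 and Ts-1 at 8.79. This gene was picked for its annotation after its values were seen. The gene table gives 4 of the 31 lower named members as pseudogenes (AT1G34100, AT2G46730, AT4G13120 and AT5G41710) and none of the 29 higher ones, where 7.40% of the 13484 probe sets with a gene class are pseudogenes. AT5G41710 was at 4.71 in Van-0 and 4.87 in Bay-0, and AT2G46730 at 4.76 in Van-0 alone, against 6.14 to 7.05.

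Most members were not extreme in Van-0 alone by a wide margin. Only 6 higher and 11 lower members lay at least 3-fold beyond the nearest other array, 5 and 7 of them with a gene name. The named ones were THI2.2, AT2G10940, AT1G54120, AT5G48570 and AT5G45950 above, and AT2G14460, AT5G42560, ATKDSA2, AT4G09500, AT5G05480, AT5G22620 and AT4G38410 below. The gap to the nearest array was under 0.5 on the log2 scale in 14 higher and 16 lower members. Without the Ler-0 array 10 higher members were 3-fold beyond the nearest, and without the Nw-0 array 19 lower ones.

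In 42 of the 89 members no other accession mean lay within 2-fold of Van-0, in 29 a single accession did, in 15 there were 2, in 2 there were 3, and in AT2G22425 there were 4. Nw-0 was within 2-fold in 15 members, Bay-0 and Ts-1 in 13 each, Ler-0 in 12, and Col-0 and Fe-1 in 8 each. By direction, Ler-0 was within 2-fold in 8 higher and 4 lower members, and Fe-1 in 2 higher and 6 lower. These counts describe the selected members and carry no test, and a mean of 3 arrays has less noise than a single array.

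**Figure D4:**
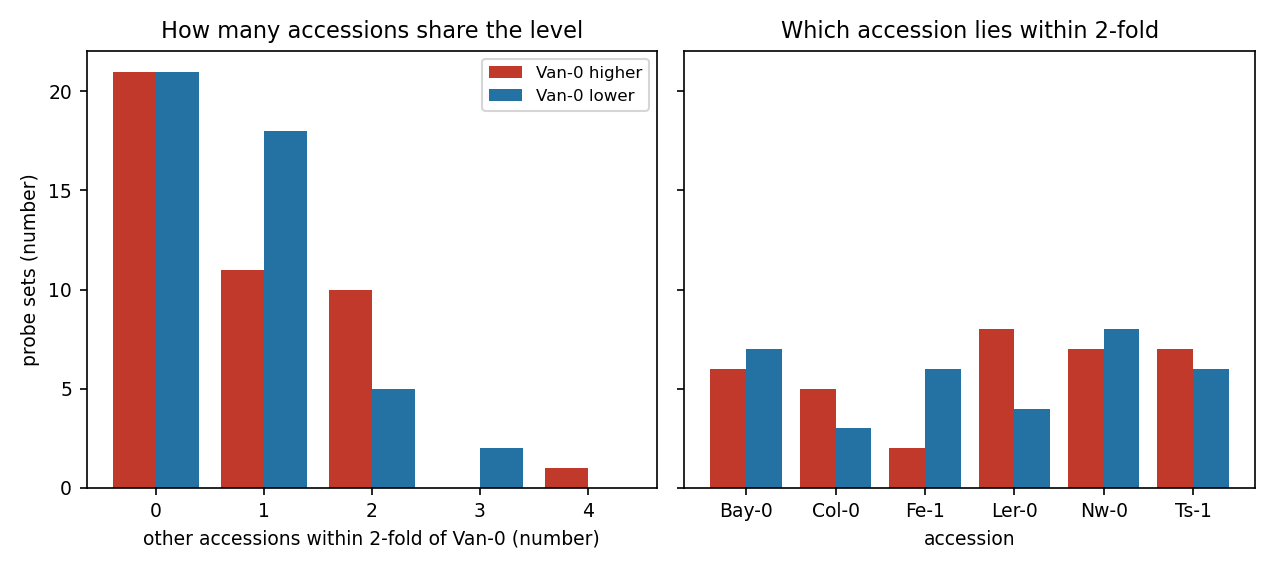
Left, number of member probe sets (y axis) by how many other accession means lie within 2-fold of Van-0 (x axis), and right, number in which each accession lies within 2-fold, with red bars for members higher and blue bars for members lower in Van-0. The tallest bars on the left are the 21 higher and 21 lower members with no accession near Van-0, and on the right Nw-0 reaches 7 higher and 8 lower.

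The 60 named members lie on all chromosomes, with 15, 11, 8, 7 and 19 on chromosomes 1 to 5, where 3451, 2200, 2746, 1962 and 3008 probe sets were placed. No pair of these 60 in the same direction had 2 or fewer measured named genes between them. Members without a single gene name in the annotation used here were not placed, so neighbours among them would be missed. Van-0 was below the lower quartile of its array in 15 of the 46 lower members, which were selected for low Van-0 values. By definition 25% of all probe sets on an array lie there. In 3 of the 43 higher members all 10 other arrays were below their lower quartiles. At least 1 of the 10 was below its lower quartile in 22 of the 43 higher and 7 of the 46 lower members. A fold against a signal below the lower quartile can understate the difference. At the edge of the 3-fold limit SCPL34 (1.60) and AT1G71070 (-1.61) were just inside and AT3G22060 (1.58) and AT1G58025 (-1.56) just outside.

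Gene lists for the shoot meristem, seed tissues, photosynthesis, glucosinolates and stress named 208 genes, of which 27 had a named probe set. Without a fold limit, 4 of their 28 probe sets were higher and 0 lower with an adjusted p under 0.05 in limma, where 3.24% of all probe sets were higher and 3.02% lower. In 3 of the 4 Van-0 was above every other array, which together with the test held for 2.23% of all probe sets, and 1.98% were below in the same way. None reached 3-fold, so no list gene was a member.

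SQN, the cyclophilin-40 gene that promotes the activity of AGO1, was at 9.03 in Van-0. Ts-1 was higher, at 9.43, Fe-1 was at 8.61 to 8.71, Ler-0 at 8.15, Nw-0 at 7.10, Bay-0 at 6.55 and Col-0 at 5.87 to 6.08. Van-0 and Ts-1 therefore had the highest SQN signals of all arrays and Col-0 the lowest. The Van-0 difference was 1.38 (standard error 0.10, adjusted p = 0.000491 with limma). The SD of the 6 other accession means was 1.32 for SQN, and its Van-0 difference was lost against that spread. A further SQN probe set lay below the lower quartile in every array, at 3.81 in Van-0.

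CLV3, the peptide signal made by shoot stem cells, was at 6.12 in Van-0, next to Ts-1 at 6.05, with the other arrays from 4.73 to 5.88. Its difference of 0.79 had an adjusted p of 0.0468 and was lost in 12 of 20 alternatives. PHV, an HD-ZIP III gene of the upper leaf side, was at 10.08 in Van-0 against 9.69 to 10.22 elsewhere, a difference of 0.10 (adjusted p = 0.683). Of the 8 meristem and polarity probe sets 2, for SQN and CLV3, had an adjusted p under 0.05 with limma. Both were higher in Van-0, and neither reached 3-fold. The median difference of the 8 was 0.02, equal to that over all probe sets.

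Only 2 of the 19 genes of the glucosinolate list had a named probe set, and both were higher in Van-0. AT2G25450 was at 10.35 in Van-0 and from 7.92 (Nw-0) through a median of 9.001 to 9.43 (Col-0 replicate 3) elsewhere. It differed by 1.51 (standard error 0.32, adjusted p = 0.0331) and was lost in 6 of 20 alternatives. AOP3, which encodes an enzyme that modifies glucosinolate side chains, was at 10.19 in Van-0, 8.81 in Bay-0 and 9.71 to 10.05 elsewhere. Its difference of 0.48 (adjusted p = 0.0461 with limma) was lost in 12 of 20 alternatives, with a lowest value of 0.31.

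No gene with a named probe set in the lists for photosynthesis (4), storage (1), flowering time and light (1), or heat, cold and wounding (3) passed. Their differences lay between -0.13 (GI, a clock-associated flowering gene) and 0.48 on the log2 scale, with LHCB4.2, a light-harvesting gene, at 0.14 and COR15A, a cold-regulated gene, at 0.02. The sign for COR15A and for PORB, a chlorophyll synthesis gene, turned with median centring. The lists for the embryo axis, resistance and the cell cycle had no gene with a named probe set.

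Of 32 genes listed for the seed coat 7 had a named probe set. At an adjusted p under 0.05 with limma 0 of the 7 passed, and 1 had an unadjusted p under that limit (UGT78D1). BAN, an anthocyanidin reductase gene of the inner seed coat, was at 7.61 in Van-0, 8.77 in Fe-1 replicate 2 and 7.40 in Fe-1 replicate 3, and from 4.67 to 5.95 in the other arrays. Its Van-0 difference was 2.22 (standard error 1.09, adjusted p = 0.327), and the SD of the Fe-1 replicates was 1.87. DFR, an earlier enzyme of flavonoid synthesis, was at 7.43 in Van-0, below Fe-1 replicate 2 at 9.51, Ler-0 at 7.97 and Fe-1 replicate 3 at 7.53. The other 5 genes differed by -0.07 (UGT78D2) to 0.27 (UGT78D1) on the log2 scale. The log2 of the summed signal of the 7 genes, most of it from UGT78D1, was 13.36 in Van-0, 13.32 to 13.49 in Fe-1 and 12.95 to 13.24 in the other arrays. The endosperm genes AGL62 and IKU2 were below the lower quartile on all arrays.

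With Fe-1 replicates 2 and 3 left out, a choice made after the data were seen for their BAN signal, 46 higher members were found, 40 of them shared with the 43, and 46 lower ones, 44 of them shared. The part of seed coat tissue in the Van-0 differences of single genes was not tested.

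**Figure D5:**
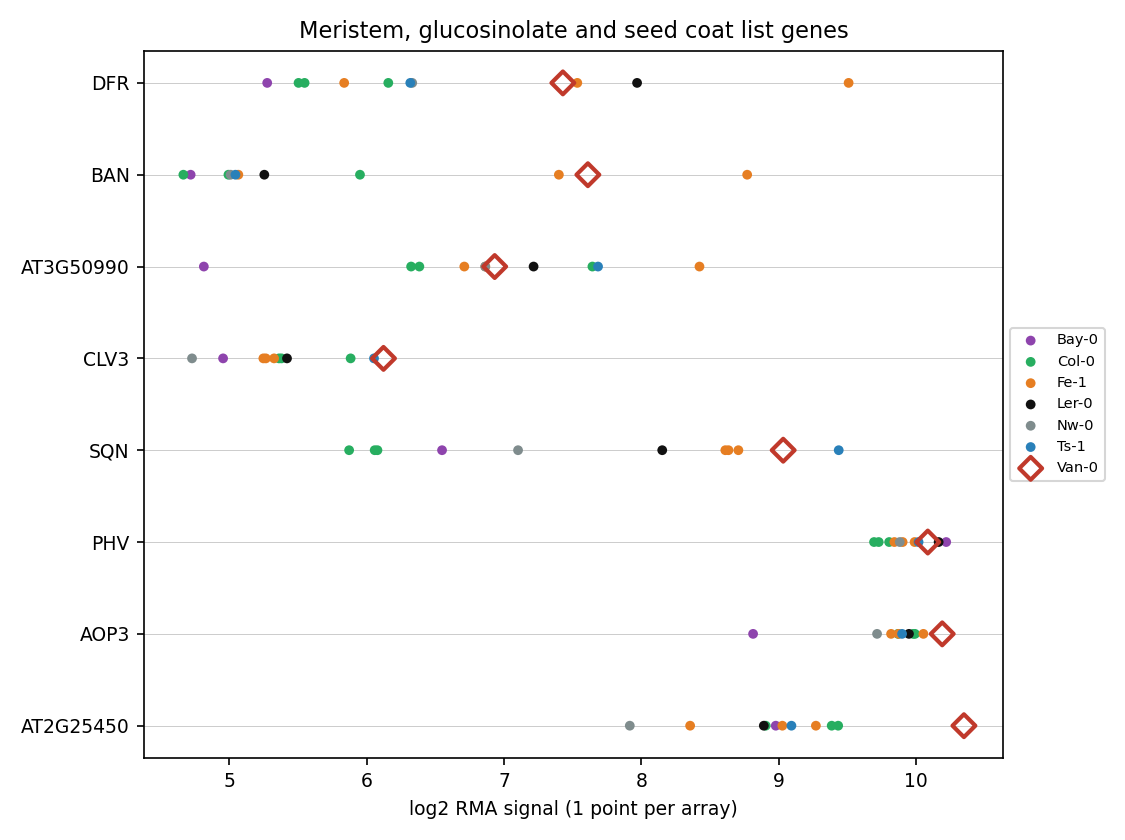
Log2 RMA signal (x axis, 1 point per array) of genes of the meristem, glucosinolate and seed coat lists, with Van-0 as open red diamonds and the other accessions as coloured circles. Van-0 is highest for CLV3, AOP3 and AT2G25450, second to Ts-1 for SQN, and second to Fe-1 replicate 2 for BAN.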

How the data were processed

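RNA of torpedo-stage embryos from 7 accessions was hybridised to 11 ATH1 arrays. The authors normalised the arrays with RMA, named in the submitters' processing notes, and the deposited values are its log2 summaries, used here unchanged. Which RMA version and chip definition were used is not given in the sources used here. No depth applies to arrays, so precision is limited by their number. The labels name the Ler-0 array Ler-1 in places and the Ts-1 array Tossa del Mar-0 in another, and the names in the titles were used.

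Without the 64 chip controls, 22746 probe sets were tested. The platform annotation gives 13513 probe sets to 1 gene, 503 to several and lists none for 8730, and 13436 had a gene ID found in the gene table of TAIR10.1, used for names, gene class and gene order. Files and labels name no genome build, so no positions are given. Accession means were fitted with limma 3.58.1 in R 4.3.3 (lmFit, eBayes, 4 residual and 3.52 prior degrees of freedom). The fit was checked on simulated data with replicate noise and shifts set in Van-0. The simulated data held no differences among the other accessions, so the check does not cover those.

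Members and gene lists were chosen with earlier results of these data known. The named genes were those with 1 gene name among the 15 largest increases and decreases of the members, the 8 with the largest gap to the nearest array in each direction, list genes past an adjusted p of 0.05 or up to 4 with the lowest adjusted p in a list, and those nearest to 3-fold. Alternatives were renewed quantile normalisation, median centring, no probe sets of the lowest 25%, no cross-hybridising types, a robust fit with an intensity trend, unmoderated statistics, a block for the replicate number, accession means, the mean of 10 arrays as reference, an unadjusted p, other fold limits, and leaving out each array other than Van-0. No sequences were printed.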

Additional observations from a re-analysis of the deposited data

How the results depend on the processing

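Against the spread between accessions 4 higher and 7 lower probe sets passed, all outside the range, and 36 of the 42 named probe sets past an adjusted p of 0.05 no longer passed. With unmoderated statistics 36 passed as higher, 24 of them outside the range. A 2-fold limit gave 211 higher and 187 lower (151 and 129 outside the range), no fold limit 737 and 687 (508 and 451), and a 2-fold gap to the nearest array 27 and 24. With 1 array left out at a time the higher probe sets outside the range numbered 39 (without Bay-0) to 55 (without Ts-1) and the lower 46 to 57 (without Bay-0). Those passing numbered 54 to 70 higher and 71 to 77 lower, and those 3-fold beyond the nearest array 6 to 10 and 11 to 19. Under the other settings each count stayed within 1.5 times its value.

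Same-numbered Col-0 and Fe-1 replicates deviated together at correlations of 0.231, 0.0354 and 0.112, so the numbers were not taken to pair arrays. With the replicate number as a block 75 probe sets were higher and 72 lower, and 55 (41 shared) and 46 were outside the range. Some genes that did not pass changed sign. COR15A was at -0.042 with renewed quantile normalisation, -0.029 with median centring and -0.018 to 0.065 with 1 array left out. PORB was at -0.029 with median centring, -0.016 with the replicate block, -0.025 without Fe-1 replicates 2 and 3 and -0.01 to 0.057 with 1 array left out. AT3G50990 ranged from -0.244 (without Bay-0) to 0.33 and LHCB4.2 from -0.021 (without Nw-0) to 0.186. The cause of these shifts was not tested. Van-0 has 1 array and could not be left out.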

Other observations

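In 42 of the 131 probe sets that passed, another array reached or went beyond the Van-0 level. In 28 of these a single accession did so. The largest was AT3G43740, at 9.88 in Van-0 and 9.17 in Bay-0, with a highest Col-0 array of 9.99, while the means of Fe-1, Ler-0, Nw-0 and Ts-1 lay between 3.48 and 3.75. The Van-0 difference was 4.29, larger than that of any member among the higher probe sets, and it describes a gene with a high and a low class of accessions. AT3G26800 was high in Van-0 (7.82) and Ler-0 (8.56) and at 3.70 to 4.25 in the other means. AT5G45500 was high in Van-0 (8.67), Col-0 (8.97) and Nw-0 (9.28) and at 4.42 to 4.66 in the others.

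On the low side, AT5G39130 was at 4.40 in Van-0 and 3.997 in Ts-1, against 8.004 to 9.795 in the other means, a difference of -3.49. AT5G56380 was low in Van-0 (4.53), Fe-1 (4.49) and Ler-0 (4.56) and at 8.54 to 9.10 elsewhere. AT1G27570 was low in Van-0 (4.44), Col-0 (4.41) and Fe-1 (4.41), with Ts-1 highest at 10.15. The genes of this section were picked after their values were seen, and not by size alone. AT5G49500, AT5G03390 and AT4G19500, left out here, had larger decreases than AT1G27570 (-2.51 to -2.48 against -2.47).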
